A study of Mus musculus with 15 samples.

Results

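Among 15 mouse mammary tumors, 7 had a Krt16 signal above 9 on the log2 scale of the arrays and 8 had a signal of 9 or below. The 7 are called high-Krt16 tumors here and the 8 low-Krt16 tumors, whatever their genotype; the members were chosen by this measured signal. The signal is that of the only transcript cluster, a set of probes covering one transcript unit, that was annotated to Krt16. All tumors came from ErbB2KI mice, a model in which mammary tumors are driven by the receptor tyrosine kinase Erbb2, and were taken at end burden and flash frozen. The labels give 5 tumors with Ctnnb1 wt/wt (WT), 5 with fl/wt (HET) and 5 with fl/fl (HOM); the floxed alleles of Ctnnb1, the gene of beta-catenin, were meant to be deleted in mammary epithelium. The labels name neither the promoter that drives the recombinase nor the strain or age, and they do not say that each tumor came from its own mouse. The p-values therefore speak of the variation among these 15 samples alone, which may be partly technical.

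Squamous differentiation is the programme by which stratified epithelia such as epidermis build a protective surface. Basal cells carry Krt5 and Krt14 and the transcription factor p63, their descendants make suprabasal keratins and desmosomes, and the outermost cells crosslink involucrin, loricrin and small proline-rich proteins into a cornified envelope that secreted proteases later help to shed. Krt16, together with its partners Krt6a and Krt6b, is the keratin set that epidermis turns on in wounds and in hyperproliferative states, and mammary glands do not normally cornify.

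The tumors were hybridised to Affymetrix whole-transcript arrays, and the median signal of an array lay between 5.54 and 5.73. Whole tumors were profiled, so fewer cells of a type and less RNA per cell cannot be told apart in any result below. Beta-catenin went against the label in both WT 5, which had a Ctnnb1 signal of 11.22, and HOM 5, which had 12.01; among the remaining tumors, WT ran from 11.71 to 12.10 and HOM from 11.15 to 11.58. The library labelled WT 5 is on the high side and the library labelled HOM 5 is on the low side. Further tumors stood apart in markers of other tissues: HET 3 in skeletal muscle genes, WT 1 in hair follicle genes, HET 1 in B and plasma cell genes, HET 4 in fibroblast and endothelial genes and HOM 4 in adipocyte genes.

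Krt16 itself spanned most of the range of the arrays. The 7 high tumors read 12.02 in HET 2, 11.05 in HOM 2, 10.33 in HET 3, 10.06 in HET 4, 9.46 in HOM 3, 9.41 in WT 5 and 9.11 in WT 4. The 8 low tumors read 8.49 in HOM 5, 8.09 in HOM 1, 8.03 in HOM 4, 7.70 in WT 2, 6.24 in HET 5, 5.61 in WT 3, 5.17 in WT 1 and 4.91 in HET 1. The step at the threshold, from WT 4 at 9.11 to HOM 5 at 8.49, was 0.62, so 4 of the low tumors sat nearer to the threshold than to the lowest readings. Since Krt16 set the sides, their means of 10.21 ± 1.04 (SD, n = 7) and 6.78 ± 1.45 (SD, n = 8) are a description without a test.

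The high side held 2 WT, 3 HET and 2 HOM tumors, and the low side 3 WT, 2 HET and 3 HOM tumors. By genotype, which the rule did not use, Krt16 averaged 7.40 ± 1.95 in WT, 8.71 ± 3.00 in HET and 9.03 ± 1.27 in HOM (SD, n = 5 each). None of the 3 genotype pairs differed beyond the spread between tumors in two-sided exact permutation tests of 5 tumors against 5: HET exceeded WT by 1.31 (p = 0.421, adjusted over the 3 pairs 0.631), HOM exceeded WT by 1.62 (p = 0.183, adjusted 0.548) and HOM exceeded HET by 0.31 (p = 0.833). The HET tumors were the most spread out and held both the highest and the lowest reading of the series.

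**Figure D1:**
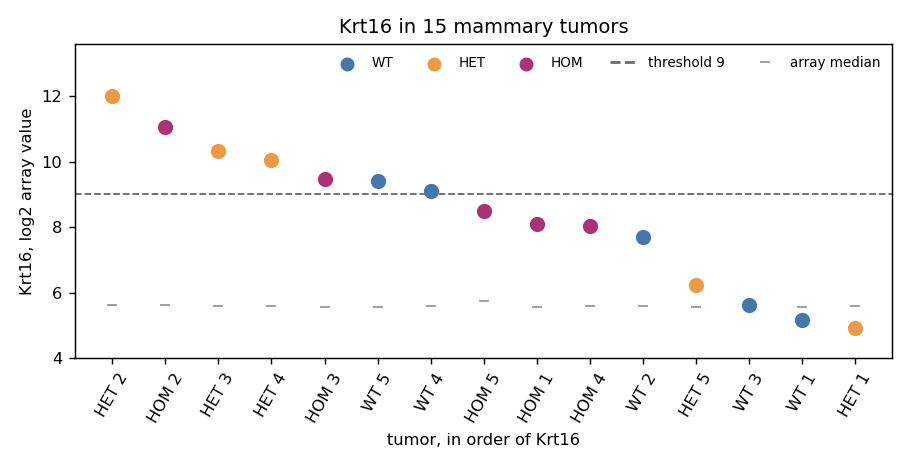
Krt16 signal (deposited log2 value) of each of the 15 tumors, ordered from highest to lowest and coloured by genotype, with the threshold of 9 as a line. The 7 tumors above the line run from 9.11 to 12.02 and the 8 below it from 4.91 to 8.49, and each genotype is found on both sides.

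The rest of the transcriptome was compared between the sides with limma, which tests the log2 difference of each gene against its spread among tumors. Of 14705 genes tested, 16 had higher signal in high-Krt16 tumors at an adjusted p under 0.05 (0.109% of the genes tested), and 0 had lower signal (0%). At an unadjusted p under 0.05, 425 genes were higher (2.89%) and 222 were lower (1.51%), together 4.4% of the genes and fewer than the 735 that this threshold gives by chance. Krt16 was read on the same arrays, so a call records that a gene varied with Krt16 across these tumors and is no separate evidence that 2 kinds of tumor exist. The 16 genes were Sprr1a, Sprr1b, Krt6a, Krt6b, Cnfn, Dmkn, Cdsn, Klk9, Spink5, Col17a1, Cpa4, Pglyrp3, Bpifc, Lypd3, Vsnl1 and Megf9, and 10 of them belong to lists of keratinocyte genes described below.

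In 14 of the 16, every high tumor read above every low tumor, the exceptions being Krt6b and Vsnl1; 29 genes of all those tested had such an order (0.197%) and 3 had the opposite one (0.0204%). All 16 were also higher on the high side within WT, within HET and within HOM tumors, an order that 1394 genes showed (9.48%). In the 14 without overlap this follows from the separation of the sides, and all 16 were called on these same tumors. The order is therefore no separate evidence that the genotypes behaved alike. With genotype added to the model, 14 genes were called (0.0952%), of which 13 were among the 16; Cnfn (adjusted p = 0.0558 in limma), Spink5 (0.0504) and Vsnl1 (0.0504) were no longer called.

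The number of calls rested on single tumors and on the threshold. It was 7 without HET 3, 8 without HET 5, HOM 1, HOM 2 or HOM 4, 10 without WT 2 or HET 1 and 28 without WT 5, and it was 22 with both WT 5 and HOM 5 left out, 15 of them among the 16; without HET 1 and HET 3 it was 4. Bpifc, Col17a1, Cpa4, Klk9, Pglyrp3, Sprr1a and Sprr1b kept their call whichever of the 15 tumors was left out. Dmkn kept it in 11 of the 15 fits, Cdsn and Lypd3 in 9, Cnfn in 8, Krt6b in 7, Spink5 in 6, Krt6a and Vsnl1 in 4 and Megf9 in 2. When the threshold was lowered to 8, which moves HOM 5, HOM 1 and HOM 4 to the high side, 1 gene was called and it was Krt14 (log2 difference 3.25, adjusted p = 0.0475 in limma); with a threshold of 10, 29 genes were called, of which 5 were among the 16.

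**Figure D2:**
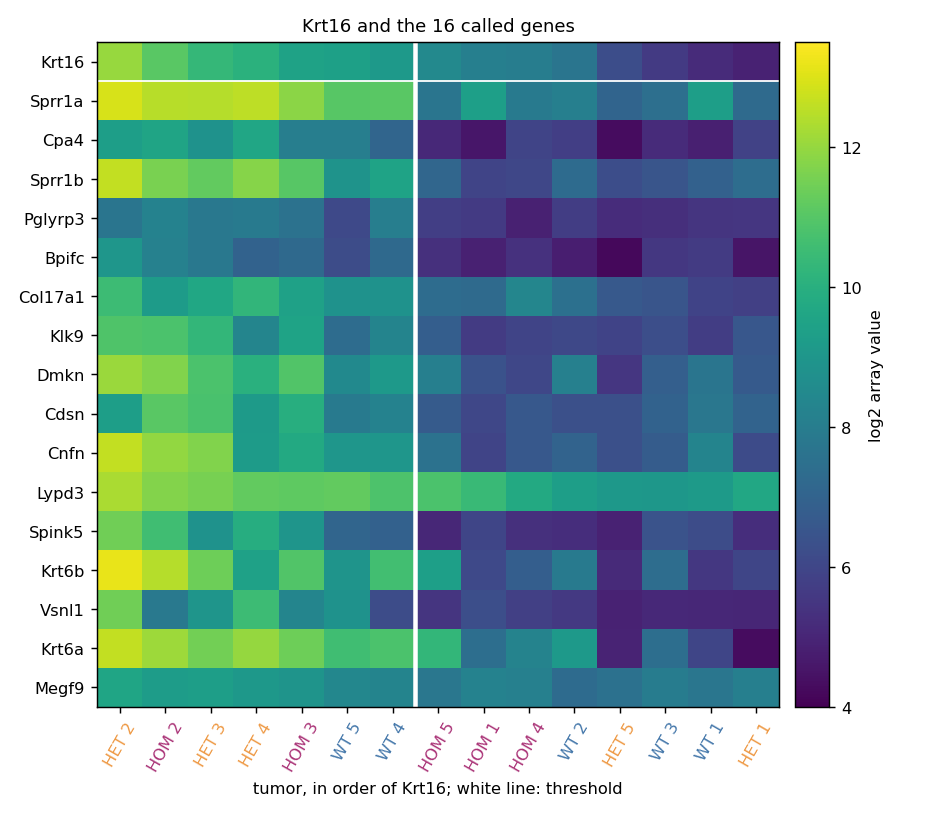
Log2 signal, shown as colour, of Krt16 and each of the 16 called genes in the 7 high-Krt16 and 8 low-Krt16 tumors. Tumors are ordered by Krt16, and a white line marks the threshold. The values of the sides do not overlap for 14 of the called genes, while those of Krt6b and Vsnl1 do.

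The genes with the smallest adjusted p-values included the paired small proline-rich genes Sprr1a and Sprr1b, whose products are crosslinked into the cornified envelope. Sprr1a ran from 11.04 through a median of 12.46 to 12.91 in high tumors and from 7.07 through 7.80 to 9.35 in low tumors. It was 4.03 higher on the log2 scale, 16.3-fold (SE 0.39, adjusted p = 0.000502 in limma), and HOM 1 and WT 1 were the highest of the low tumors. Sprr1b ran from 8.86 through 11.23 to 12.62 in high tumors and from 5.96 through 6.73 to 7.38 in low tumors. Its difference was 4.26, or 19.1-fold (SE 0.48, adjusted p = 0.00101 in limma). For both genes WT 5 and WT 4 were the lowest of the high tumors, and the low tumors nearest to the threshold, HOM 5, HOM 1 and HOM 4, read with the other low tumors in Sprr1b.

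Upstream sequence was examined because AP-1, the Jun and Fos family of transcription factors, is a known regulator of keratinocyte differentiation genes; the motif was chosen with the called genes known. Of the 16 called genes, 12 had an entry in the RefSeq promoter table (GRCm38.p6); Krt6a, Krt6b, Pglyrp3 and Spink5, like Krt16, had none. The AP-1 letters TGANTCA, which read the same on both strands, occurred in the 250 bases before the start of Sprr1a, Sprr1b, Cpa4, Bpifc and Dmkn, 5 of 12, against 7.82% of 27025 genes in the table and 6.31% of the 11478 tested genes found in it. A match describes letters and shows no binding. The 150 bases before each of these starts are given 5′ to 3′ on the gene's strand, with the AP-1 letters in capitals, since these genes moved with Krt16 and carry the motif close to the start.
Sprr1a, chr3:92485882-92486031, minus strand: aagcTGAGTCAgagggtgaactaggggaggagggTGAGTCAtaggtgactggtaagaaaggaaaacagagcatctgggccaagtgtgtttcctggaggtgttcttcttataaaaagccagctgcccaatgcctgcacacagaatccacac
Sprr1b, chr3:92438780-92438929, minus strand: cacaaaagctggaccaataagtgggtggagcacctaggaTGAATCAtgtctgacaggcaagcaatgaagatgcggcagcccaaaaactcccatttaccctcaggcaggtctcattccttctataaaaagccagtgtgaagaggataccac
Cpa4, chr6:30568219-30568368, plus strand: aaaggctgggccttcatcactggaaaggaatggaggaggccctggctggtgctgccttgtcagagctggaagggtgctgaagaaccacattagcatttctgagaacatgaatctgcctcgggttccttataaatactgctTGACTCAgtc
Bpifc, chr10:86011861-86012010, minus strand: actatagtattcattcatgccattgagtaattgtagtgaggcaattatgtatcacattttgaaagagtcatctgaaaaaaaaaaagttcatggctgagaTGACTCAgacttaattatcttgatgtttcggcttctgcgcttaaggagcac
Dmkn, chr7:30763606-30763755, plus strand: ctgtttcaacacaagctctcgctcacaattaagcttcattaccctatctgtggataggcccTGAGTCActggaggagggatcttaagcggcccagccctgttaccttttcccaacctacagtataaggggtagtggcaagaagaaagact
In Sprr1a the motif occurred at 146 to 140 and again at 116 to 110 bases before the start, and in Sprr1b at 111 to 105. It lay 10 to 4 bases before the start in Cpa4, 51 to 45 in Bpifc and 89 to 83 in Dmkn.

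The other small proline-rich genes were higher in fewer tumors. All 11 measured members of the family had a higher mean on the high side, with a median log2 difference of 1.79 against -0.0153 over all measured genes, and 2 of 7 tested members, Sprr1a and Sprr1b, passed the test. Sprr2e, another envelope precursor, read 11.27 in HET 2 and 10.63 in HET 4, between 5.45 and 7.79 in the other high tumors and between 4.26 and 5.16 in the low tumors, so that the sides did not overlap while its difference of 3.12 had an adjusted p of 0.221 in limma. Sprr2d (2.81, adjusted p = 0.644) and Sprr2h (1.79, adjusted p = 0.322) did not pass either. All 3 read below the array medians in every low tumor and entered the test through high tumors alone, so their higher means are a description. Sprr4, a further member of the family, read 10.78 in HET 3, 10.05 in HOM 2 and 9.65 in HOM 3, 7.57 in WT 1 of the low side and at most 6.35 in the others (difference 1.77, adjusted p = 0.9998). Sprr3 was not tested, since it was above the array median on too few arrays. The clusters annotated jointly to Sprr2a1, Sprr2a2 and Sprr2a3 cannot be assigned to one gene.

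Among keratins, the Krt6 partners of Krt16 rose and the basal, suprabasal and simple keratins that were tested did not pass. Krt5 had no cluster of its own and was not tested. A cluster annotated jointly to Krt5 and Krt6a, which cannot be assigned to either gene, differed by 3.34 (adjusted p = 0.0163 in limma over 22668 clusters). Krt6a ran from 10.60 through a median of 11.49 to 12.62 in high tumors and from 4.31 through 7.43 to 10.31 in low tumors, a difference of 4.36 or 20.5-fold (adjusted p = 0.0365 in limma). Krt6b ran from 8.92 through 10.91 to 13.20 against 5.14 through 6.47 to 9.37, a difference of 4.21 or 18.5-fold (adjusted p = 0.0258 in limma). HOM 5, the low tumor nearest to the threshold, was the highest low tumor for both genes and overlapped with WT 5 in Krt6b. Krt6a and Krt6b are near-identical neighbours, as Krt14, Krt16 and Krt17 are similar in sequence, and probes may share signal between them.

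Krt14 and Krt17, the other marker genes of the split, followed Krt16 only in part. Krt14, the basal keratin, read 12.50 ± 0.55 in high and 10.27 ± 1.90 in low tumors (SD, n = 7 and 8; difference 2.23, adjusted p = 0.540 in limma). Krt17, a keratin of appendages and wounded skin, read 12.81 ± 0.19 and 11.07 ± 1.85 (difference 1.75, adjusted p = 0.882 in limma). Both were high in every high tumor, but HOM 1 and HOM 4 of the low side matched them, with 12.81 and 12.53 for Krt14 and 13.12 and 13.17 for Krt17. In the same HOM 1 and HOM 4 tumors Krt6a read 7.44 and 8.24 and Sprr1b read 5.96 and 6.02, values of the low side. Within WT tumors the sides differed by 2.85 in Krt14 and within HET tumors by 4.11, whereas within HOM tumors they differed by 0.06. Of the HET tumors on the low side, HET 1 read 7.16 in Krt14, the lowest of the series, and HET 5 read 10.32.

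The keratins of normal epidermal and mucosal differentiation did not pass the test. Of 13 suprabasal keratins measured, 6 were tested and 0 passed; 1 of the 6, Krt80, had an unadjusted p under 0.05 (difference 0.89, adjusted p = 0.607 in limma). Krt1 (6.11 ± 0.87 against 5.66 ± 0.25) and Krt10 (6.77 ± 0.41 against 6.42 ± 0.36), the suprabasal pair of epidermis, had adjusted p-values of 0.9998 in limma. Krt1 was highest in HOM 2, at 7.83, and Krt10 was above the array median on all 15 arrays, reaching 7.34 in HET 3. Krt13 (5.01 ± 0.24 against 4.90 ± 0.17) and Krt4 (4.97 ± 0.49 against 4.91 ± 0.39), the mucosal pair, were not tested. Krt13 was below the array median in every tumor, and Krt4 was above it on 2 arrays, HET 2 and HET 5. The simple keratins of luminal cells were strong on both sides: Krt8 read 12.11 ± 0.32 against 12.21 ± 0.25 and Krt18 read 11.88 ± 0.49 against 11.96 ± 0.40, with differences of -0.10 and -0.08 whose sign turned under some alternatives.

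**Figure D3:**
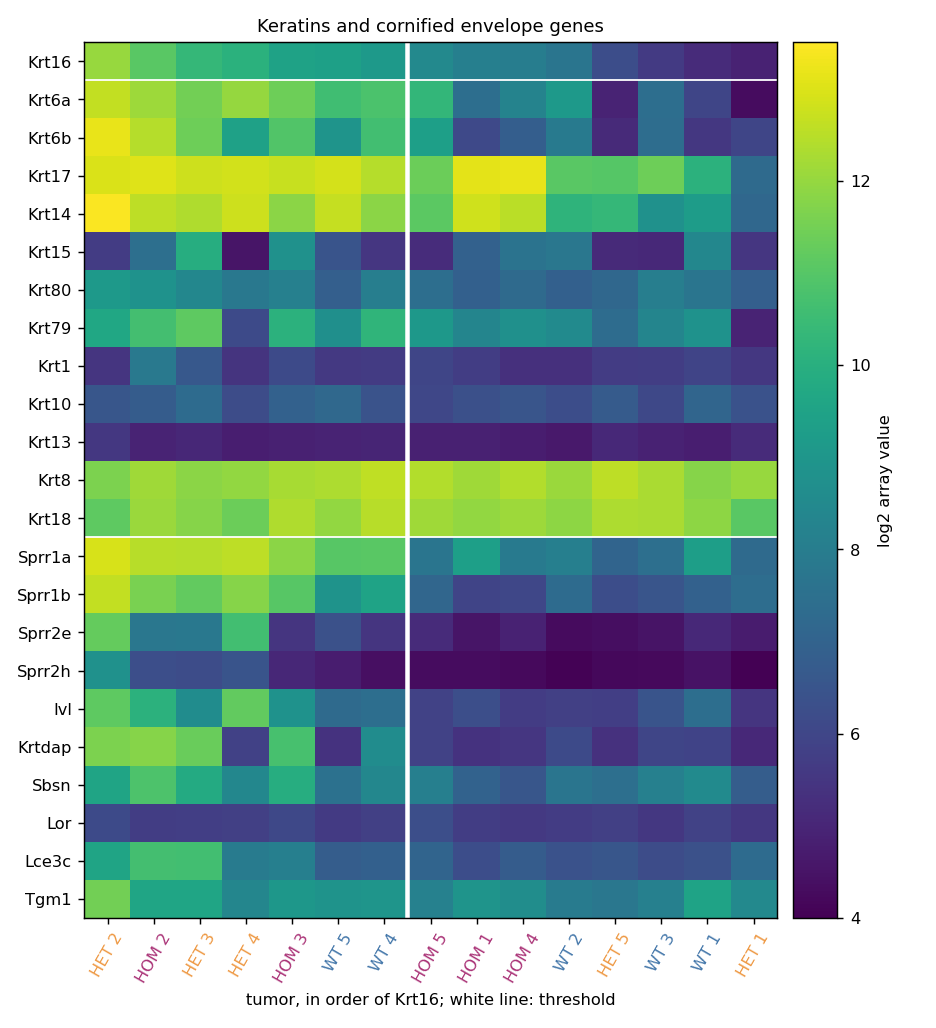
Log2 signal of keratins and cornified envelope genes in each of the 15 tumors, ordered by Krt16 from left to right. Krt14 and Krt17 remain high in the low-side tumors HOM 1 and HOM 4, where Krt6a reads 7.44 and 8.24, and Lor reads between 5.53 and 6.29 in all tumors.

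Of the other cornified envelope proteins, 3 of 13 tested members rose and 10 of 13 had a higher mean at an unadjusted p under 0.05. Of all 15 measured, 14 had a higher mean, with a median log2 difference of 1.67. Flg, a tested member of this list, was below the array medians in every low tumor. It entered the test through high tumors alone, so its higher mean is a description. Cnfn, the envelope protein cornifelin, ran from 8.97 through 9.77 to 12.62 in high tumors and from 5.94 through 6.69 to 8.30 in low tumors (difference 3.63, 12.4-fold, adjusted p = 0.0210 in limma). Dmkn, the secreted keratinocyte protein dermokine, ran from 8.50 through 10.81 to 12.07 against 5.49 through 6.79 to 8.12 (difference 3.53, 11.6-fold, adjusted p = 0.0187). Cdsn, the corneodesmosome adhesion protein, ran from 7.91 through 9.31 to 11.07 against 6.03 through 6.68 to 7.76 (difference 2.76, 6.76-fold, adjusted p = 0.0210). In all 3 genes WT 5 was the lowest of the high tumors, and WT 1, the tumor with hair follicle genes, was the highest low tumor for Cnfn and Cdsn.

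Several classical envelope genes had large differences that missed the threshold. Ivl, the scaffold protein involucrin, read 9.24 ± 1.63 against 6.09 ± 0.63 (SD, n = 7 and 8; difference 3.14, adjusted p = 0.0558 in limma), with HET 4 at 11.21 and HET 2 at 11.16 the highest and WT 1 of the low side at 7.42 level with WT 4 and WT 5. Krtdap, a protein secreted by differentiating keratinocytes, split the high side: 5 tumors read 8.63 to 11.77, while HET 4 read 5.82 and WT 5 read 5.41, within the 5.10 to 6.13 of the low tumors (difference 3.68, adjusted p = 0.219). HET 4 was thus among the highest tumors for Ivl and Sprr2e and at the level of the low side for Krtdap. Sbsn, or suprabasin, differed by 1.67 (adjusted p = 0.303). Lor, the loricrin gene and a major product of mature epidermis, read 5.84 ± 0.19 and 5.76 ± 0.25 (adjusted p = 0.9998). The late cornified envelope genes were mostly dim: 0 of 9 tested rose, and Lce3c had the smallest p with 8.66 ± 1.63 against 6.61 ± 0.40 (difference 2.05, adjusted p = 0.305).

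The epidermal kallikreins, secreted serine proteases that cleave corneodesmosomes, had higher means throughout. All 10 genes were higher in high tumors with an unadjusted p under 0.05, with a median log2 difference of 2.24, and 1 of 10 rose after adjustment. That gene, Klk9, ran from 7.37 through 9.50 to 10.90 in high tumors and from 5.66 through 5.997 to 6.84 in low tumors (difference 3.24, 9.42-fold, adjusted p = 0.0123 in limma). Klk11 (3.15, adjusted p = 0.0788), Klk13 (2.85, adjusted p = 0.120) and Klk14 (2.53, adjusted p = 0.644) followed it in size. The kallikreins lie beside each other in the genome and are not independent of each other. HET 4 had the lowest mean kallikrein signal of the high tumors at 7.77, below HOM 5 of the low side at 8.17, and HOM 2 had the highest at 11.06.

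Spink5, an inhibitor of these proteases, ran from 6.93 through 8.96 to 11.45 in high tumors and from 4.91 through 5.28 to 6.42 in low tumors (difference 3.57, 11.9-fold, adjusted p = 0.0246 in limma). It was the 1 of 5 tested protease inhibitors that rose; Serpinb2, a plasminogen activator inhibitor, differed by 2.76 (adjusted p = 0.324). Among the enzymes that crosslink the envelope and make its lipids, 0 of 18 tested passed although 18 of 19 measured had a higher mean and 14 had an unadjusted p under 0.05, with a median log2 difference of 1.23. Abca12, the lipid transporter of lamellar granules, differed by 1.90 (adjusted p = 0.153), Cyp4f39, a fatty acid hydroxylase, by 2.69 (adjusted p = 0.153) and Elovl4, a fatty acid elongase, by 2.69 (adjusted p = 0.189). Tgm1, the transglutaminase of the envelope, read 9.41 ± 1.01 against 8.45 ± 0.57 (difference 0.96, adjusted p = 0.9998), and its highest reading, 11.48, was in HET 2.

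Of the junctions of stratified epithelium, the desmosome genes had higher means without a call: 0 of 14 tested rose, 8 had a higher mean at an unadjusted p under 0.05, and the median difference over 16 measured was 1.07. Dsg1b, counted among the 8, was below the array medians in every low tumor. It entered the test through high tumors alone, so its higher mean is a description. Perp, a desmosome membrane protein that p63 activates, ran from 11.52 to 12.46 in high tumors and from 9.86 to 11.18 in low tumors, with no overlap, and differed by 1.09 (adjusted p = 0.0724 in limma). Dsg3, a desmosomal cadherin of basal keratinocytes, differed by 2.80 (adjusted p = 0.153), again without overlap. Dsc3 differed by 2.24 (adjusted p = 0.479), Pkp1 by 1.74 (adjusted p = 0.745) and Dsp, the plakin that links desmosomes to keratins, by 1.73 (adjusted p = 0.336), while Dsg2, the desmosomal cadherin of simple epithelia, differed by -0.23 (adjusted p = 0.9998). The low tumor HET 1 had the lowest mean desmosome signal of the series, 6.45, followed by HOM 5 at 7.58. Pkp1, Dsp and Dsg2 were each lowest in HET 1.

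At the basement membrane, 1 of 10 tested hemidesmosome genes rose. Col17a1, the transmembrane collagen of hemidesmosomes, ran from 8.83 through 9.44 to 10.52 in high tumors and from 5.82 through 6.96 to 8.35 in low tumors (difference 2.62, 6.13-fold, adjusted p = 0.0103 in limma). Its partners Itga6 (11.67 ± 0.23 against 11.70 ± 0.28) and Itgb4 (10.89 ± 0.34 against 10.52 ± 0.60), the hemidesmosome integrin, had adjusted p-values of 0.9998, and the median difference of the list was 0.13.

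No transcription factor of the squamous list passed the test (0 of 15), with 5 at an unadjusted p under 0.05, all higher. Trp63, which encodes p63, the regulator of stratified epithelium, ran from 7.98 through 8.98 to 10.37 in high tumors and from 6.38 through 7.198 to 8.76 in low tumors (difference 1.65, adjusted p = 0.137 in limma); HOM 1 of the low side, at 8.76, lay within the high tumors. Sox15 differed by 1.48 (adjusted p = 0.403). Of the Notch pathway, which keratinocytes use to leave the basal layer, 0 of 11 genes passed: the ligand Jag2 differed by 1.31 (adjusted p = 0.153) and the nuclear effector Rbpj by -0.57 (adjusted p = 0.336).

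Secreted signals of keratinocytes had higher means without a call. Among 18 alarmin and interleukin-1 family genes tested, 17 had a higher mean and 10 an unadjusted p under 0.05, but 0 passed, with a median log2 difference of 1.21. Il1f8, counted among the 10, was below the array medians in every low tumor. It entered the test through high tumors alone, so its higher mean is a description. The antimicrobial peptide Defb14 ran from 5.07 in WT 4 to 11.01 in HET 2 among high tumors and from 4.44 to 5.02 among low tumors (difference 2.70, adjusted p = 0.219 in limma), and it too was below the array medians in every low tumor. Il1f9, the interleukin-36 gamma gene, differed by 2.81 (adjusted p = 0.305). Of the ErbB receptors and ligands, which include the driver of these tumors, 0 of 11 passed and 4 were higher at an unadjusted p under 0.05. They included Nrg1, a ligand of Erbb3 and Erbb4, with 9.87 ± 1.07 against 7.74 ± 1.22 (difference 2.13, adjusted p = 0.269), Epgn, a ligand of Egfr (1.90, adjusted p = 0.303), and Egfr itself (0.68, adjusted p = 0.9998).

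**Figure D4:**
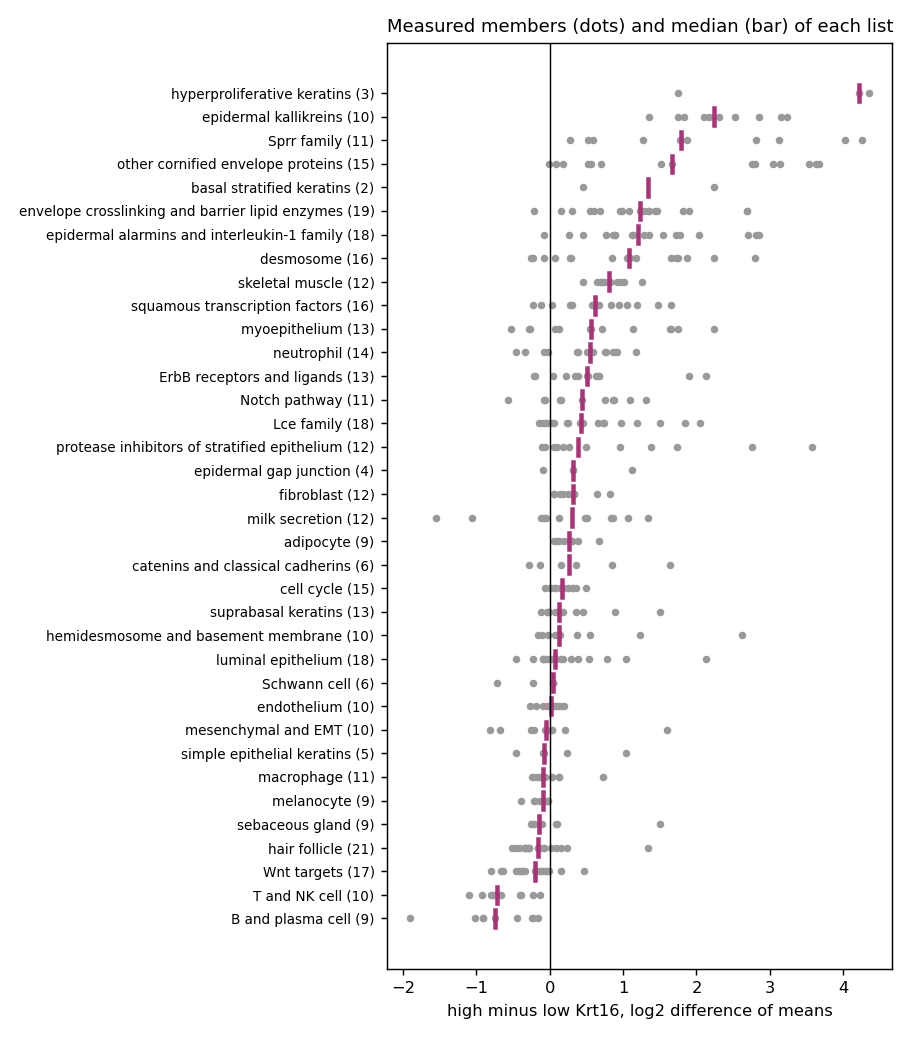
High minus low log2 difference of every measured gene in each gene list, Krt16 apart, with one point per gene and the median of each list drawn as a bar. The medians of the hyperproliferative keratins (4.21) and kallikreins (2.24) lie farthest above 0, while those of T and NK cells (-0.71) and B and plasma cells (-0.74) lie farthest below.

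The other 6 called genes were in none of the lists. Cpa4, a secreted carboxypeptidase, ran from 7.09 through 8.83 to 9.61 in high tumors and from 4.33 through 5.14 to 5.95 in low tumors (difference 3.45, 10.9-fold, adjusted p = 0.00101 in limma). Pglyrp3, a bactericidal peptidoglycan recognition protein, ran from 6.10 through 7.81 to 8.23 against 4.88 through 5.49 to 5.78 (difference 2.19, 4.57-fold, adjusted p = 0.00146). Its gene lies 7 tested genes from Sprr1b, and WT 5 at 6.10 stood below the other high tumors, which began at 7.57.

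Bpifc, a member of the lipid-binding BPI fold family, ran from 6.21 through 7.25 to 9.002 against 4.19 through 5.09 to 5.63 (difference 2.49, 5.62-fold, adjusted p = 0.00921 in limma). Lypd3, a membrane-anchored surface protein of stratified epithelium, ran from 10.85 through 11.21 to 12.28 against 9.02 through 9.52 to 10.81 (difference 1.76, 3.39-fold, adjusted p = 0.0210). The low tumor HOM 5 came closest to the high side in Lypd3, at 10.81. Vsnl1, a neuronal calcium sensor, ran from 6.20 through 8.83 to 11.46 against 4.89 through 5.28 to 6.27 (difference 3.48, 11.2-fold, adjusted p = 0.0283), and WT 4 of the high side read below HOM 1 of the low side. Megf9, a membrane protein with EGF-like domains, ran from 8.29 through 9.05 to 9.58 against 7.33 through 7.89 to 8.20 (difference 1.12, 2.18-fold, adjusted p = 0.0406).

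The high tumors were not alike. HET 2 had the highest reading of Krt16, Sprr1a, Sprr1b, Krt6a, Krt6b, Cnfn, Dmkn, Klk9, Spink5, Col17a1, Bpifc, Lypd3, Vsnl1 and Megf9, HOM 2 had the highest of Cdsn and Pglyrp3, and HET 4 that of Cpa4. WT 5 and WT 4, which were nearest to the threshold, were the lowest pair of the high side for Sprr1a, Sprr1b, Krt6a, Cpa4, Dmkn, Cnfn, Cdsn, Klk9, Spink5, Col17a1 and Megf9. Mean signals of the small proline-rich family ran from 5.65 in WT 4 and 5.78 in WT 5 to 9.23 in HET 2, against 4.76 to 5.50 on the low side. The difference between sides did not pass a test of differing between genotypes for any of the 16 called genes in limma, where 3 of all genes tested did (0.0204%; 9.77% at an unadjusted p under 0.05).

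Markers of other cell types were examined for the same split, and 0 genes of these lists passed the test in either direction. All 10 T and NK cell genes and all 9 B and plasma cell genes measured had a lower mean in high tumors, with median differences of -0.71 and -0.74. Mean T and NK cell signal ran from 5.57 to 6.92 in high tumors and from 5.72 to 8.21 in low tumors. Mean B and plasma cell signal ran from 5.14 to 5.90 in high tumors and from 5.29 to 6.49 in low tumors other than HET 1, which read 9.06. Fibroblast genes were higher in their means for 12 of 12 (median 0.32; 8.08 to 11.43 in high and 6.84 to 10.20 in low tumors), and endothelial genes for 5 of 10 (median 0.02; 7.66 to 10.11 and 7.37 to 9.39). Neutrophil genes had a higher mean for 10 of 14 (median 0.55), with HET 1 at 10.47 and HET 2 at 10.13 the highest of their sides. The part of these cells in the squamous differences was not tested.

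Genes of hair follicle, sebaceous gland and pigment cells, which skin contains, were examined in the same way. Of 21 hair follicle genes measured, 5 had a higher mean in high tumors, and their mean signal ran from 5.40 to 5.99 in high tumors and from 5.36 to 5.54 in low tumors other than WT 1, which read 7.78. The highest hair follicle signal lay on the low side, and Sprr1a in that tumor read 9.31. Sebaceous gland genes ran from 5.25 to 5.94 in high and from 5.21 to 6.23 in low tumors, and melanocyte genes from 4.74 to 4.85 and from 4.71 to 5.24, both about or below the array medians. Late epidermal genes were uneven among the high tumors: Lor was near the array medians in all of them, whereas HOM 2, HET 3 and HOM 3 stood above the other high tumors in several others, which were picked after their values were seen. Dsc1, a desmosomal cadherin of suprabasal keratinocytes, read 9.90, 9.64 and 9.17 in these 3 tumors, at most 6.03 in the other high tumors and 7.84 in WT 1. Rptn, the envelope protein repetin, read 9.12, 8.62 and 8.33 in them, at most 4.87 in the other high tumors and 6.03 in WT 1. Casp14, a protease of cornifying cells, read 8.44, 8.01 and 7.42 in them and at most 5.70 elsewhere. The differences between sides were 1.87 for Dsc1, 1.52 for Rptn and 1.28 for Casp14, each with an adjusted p of 0.9998 in limma. The part of adjoining skin in these values was not tested.

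Skeletal muscle genes averaged 10.90 in HET 3 and at most 6.15 in any other tumor, and HET 3 is one of the high tumors, where 12 of 12 of these genes had a higher mean (median 0.81). Of the luminal genes, 0 of 17 were called (11 of 18 with a higher mean, median 0.08), and Aldh1a3, a retinaldehyde dehydrogenase of luminal progenitors, had a difference of 2.13 (adjusted p = 0.0724 in limma). Myoepithelial genes, which include Krt14, had a higher mean for 10 of 13 (median 0.56) with 0 called.

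**Figure D5:**
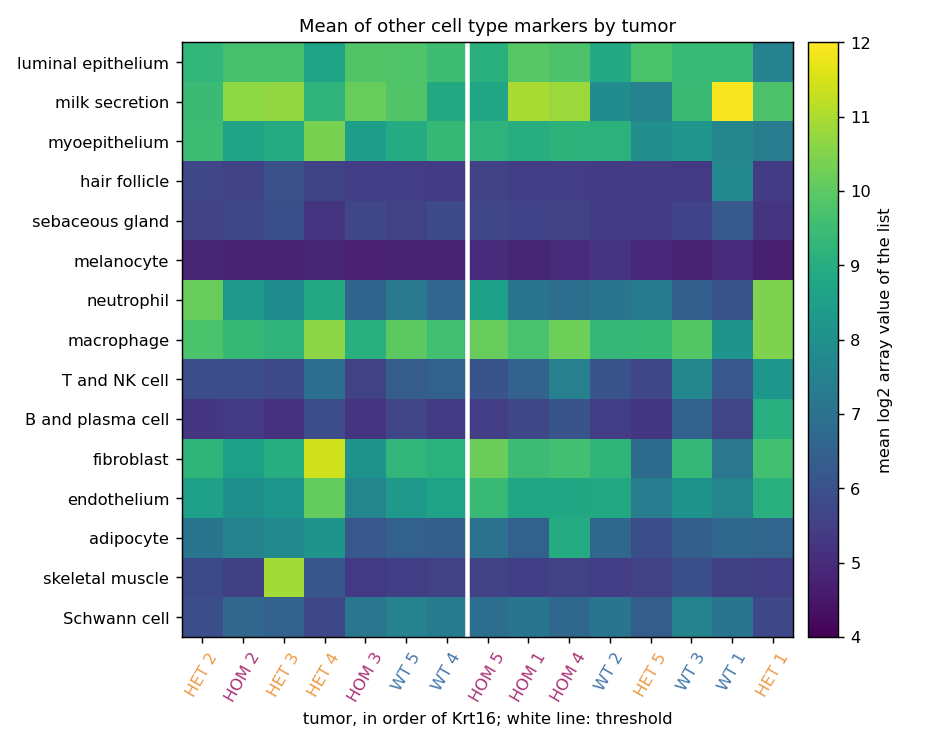
Mean log2 signal of marker lists for other cell types in each tumor, shown as colour, with tumors ordered by Krt16 and a white line at the threshold. Single tumors stand apart in skeletal muscle (HET 3, 10.90), hair follicle (WT 1, 7.78) and B and plasma cell genes (HET 1, 9.06), and elsewhere the sides overlap.

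The genes that define the model were set against the same split. Ctnnb1 ran from 11.22 through 11.36 to 12.08 in high tumors and from 11.15 through 11.68 to 12.10 in low tumors, a difference of -0.28 (95% interval -0.62 to 0.06; two-sided exact permutation p = 0.109 over 6435 assignments). It was -0.20 (exact permutation p = 0.274) with both WT 5 and HOM 5 left out, -0.39 (exact permutation p = 0.0226) without WT 4 and -0.36 (exact permutation p = 0.0367) without HOM 4. Erbb2 differed by 0.39 (95% interval -0.67 to 1.45; exact permutation p = 0.477). Jup, the plakoglobin gene, which is the desmosomal relative of beta-catenin, read 12.47 ± 0.65 against 11.63 ± 0.97 (difference 0.84, adjusted p = 0.9998 in limma). Wnt target genes had a lower mean for 15 of 17, with a median difference of -0.20 and 0 called. The low tumor WT 1 had the highest mean signal of this list, 8.96, followed by WT 2 of the same side at 8.28. The share of WT 1 in the lower means was not tested.

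Krt16 lies on chromosome 11 in the type I keratin cluster, with Krt14 and Krt17 as its nearest tested neighbours, and with Jup 5 tested genes away. None of the 15 tested genes on either side of it passed the test (0 of 30, where 0.109% of all genes tested rose), their differences ranging from -0.88 for Dhx58 to 2.23 for Krt14. Krt19, which is 3 tested genes away, differed by 1.04, Krt15 by 0.46 and P3h4, beyond Jup, by 1.02, all with adjusted p-values of 0.9998 in limma. The hair keratins and keratin-associated protein genes of the cluster differed by at most 0.46 in size.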

How the data were processed

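Total RNA from 15 tumors, 100 ng each, was labelled with an Affymetrix whole-transcript kit, per the labels' protocols. The authors deposited log2 values for 41345 transcript clusters; Affymetrix Expression Console and Transcriptome Analysis Console are named in the submitters' processing notes, and the log2 scale was read from the values (1.06 to 13.9), with normalization and background correction not given in the sources used here. Gene names came from the platform annotation: 23521 clusters had 1 symbol, 1814 had several and 16010 had none. Symbols were checked by Entrez ID against RefSeq (23328 matched, 0 changed).

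From the deposited log2 values, the cluster with the highest mean was kept for each of 22180 genes, and 14705 genes above the array median on at least 3 arrays were tested, Krt16 apart. This filter ignored the sides, so a gene above the median in high tumors alone could enter the test. The sides were compared in R 4.3.3 with lmFit and eBayes of limma 3.58.1 (two-sided, 13 residual degrees of freedom, Benjamini-Hochberg adjustment over all genes tested, threshold 0.05). Lists are described by counts and medians over measured members. Genotype was compared by exact permutation, as were Ctnnb1 and Erbb2 by side. The genes named are the keratin, envelope and junction genes of the rule and up to 10 called genes with the largest difference. Also named are up to 4 tested genes of each list with the smallest p. The other called genes, Krt4, Sprr2d, Sprr4, Flg, Klk14, Dsg2, Dsc1, Rptn, Casp14, Itga6 and the neighbours of Krt16 were named after their values were seen. The members and lists were chosen with earlier results of these data known. On simulated data of 14705 genes for this comparison, 200 genes were changed, 100 by 1 and 100 by 2 on the log2 scale. Of those changed by 1, 82 of 100 were recovered, and of those changed by 2, 94 of 100, with 13 false among 189 calls. In the tumors 16 genes were called. Krt14 (difference 2.23, adjusted p = 0.540 in limma), Dsg3 (2.80, adjusted p = 0.153) and Krtdap (3.68, adjusted p = 0.219) were not called. Recovery at the spread of the squamous genes was not tested. Precision is limited by the number of arrays.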

Additional observations from a re-analysis of the deposited data

Results flagged for a closer look

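A tumor stood apart from the others of its side in 24 of 195 groups of values examined. Among independent groups chance does so in about 1 of 20. These groups share tumors and genes, so the count does not measure an excess over chance. HET 1, on the low side, was lowest for Krt79 (4.95), Krt18 (11.08) and the means of the desmosome (6.45), luminal (7.56) and catenin and cadherin (9.55) lists, and highest for Dsc3 (6.84) and the B and plasma cell list (9.06). WT 1, also on the low side, was highest in the means of the small proline-rich family (5.50), the other envelope proteins (6.78) and the hair follicle list (7.78), and lowest for Nrg1 (5.15) and the hemidesmosome (8.48) and ErbB (6.93) lists.

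HET 2 was the highest high tumor for Tgm1 (11.48), Jag2 (9.76) and the ErbB list (8.97). HET 4 was the highest for the fibroblast (11.43) and endothelial (10.11) lists and HET 3 for the skeletal muscle list (10.90). WT 5 was the lowest high tumor for Pglyrp3 (6.10). Among low tumors, HOM 5 was the highest for Lor (6.29), HOM 1 for Klk11 (6.97), HOM 4 for the adipocyte list (8.93) and WT 3 for the skeletal muscle list (5.95).

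In 3 genes the difference between the sides itself differed between genotypes in limma. Snai2, a transcription factor of basal and mesenchymal cells, was higher on the high side by 1.78 in WT and 3.03 in HET tumors and differed by -0.46 in HOM tumors (adjusted p = 0.0165). For Rabggtb, a Rab prenylation subunit, the differences were -2.62, -1.54 and 3.51 (adjusted p = 0.0454), and for A2m, a plasma protease inhibitor, 4.20, 0.45 and -0.40 (adjusted p = 0.0454). A2m read 10.26 in WT 4 and 10.19 in WT 5, and at most 7.28 in any other tumor. Each genotype had only 2 or 3 tumors on a side, and this comparison was not repeated without WT 5 and HOM 5.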

How the results depend on the processing

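The count of 16 calls stayed at 16 under no filter on dim genes, a filter on 5 arrays, median centring, quantile normalization applied again, averaging a gene's clusters and a trended robust fit; of these, no filter exchanged 1 gene and the others kept the same genes. It was 19 with a 75th percentile filter, 14 with genotype in the model, 32 with array weights, 1 with a threshold of 8, 29 with a threshold of 10 and 4 without HET 1 and HET 3, and it ran from 7 to 28 with one tumor left out. The count of called genes that belong to lists, 10, became 16 with array weights, 1 with a threshold of 8 and 2 without HET 1 and HET 3, and ran from 4 to 17 with one tumor left out. Differences that changed sign were those of Krt18 (0.0228 with genotype in the model, 0.0408 with a threshold of 8, and from -0.207 to 0.0440 with one tumor left out, above 0 without HET 2 or HET 4), Krt8 (0.0275 with a threshold of 8) and Krt15 (-0.18 without HET 1 and HET 3, and from -0.0414, without HET 3, to 0.857). The Krt16 difference of HOM and HET ran from -0.64 to 1.14 with one tumor left out, and was below 0 without HET 1, HET 5 (-0.31) or HOM 2 (-0.19). The Ctnnb1 difference passed the test without WT 4 (-0.39) and without HOM 4 (-0.36), and ran from -0.39 to -0.23. The cause of these changes was not tested. The same 7 tumors were above 9 under renewed quantile normalization and centring, and no second Krt16 cluster exists to be tried. No paired analysis was possible because the labels give no replicate numbers.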

Other observations

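A cluster annotated jointly to Krt5 and Krt6a, which cannot be assigned to either gene, read 11.94 ± 0.63 in high tumors and 8.61 ± 1.29 in low tumors (SD, n = 7 and 8; difference 3.34, adjusted p = 0.0163 in limma over 22668 clusters). This fit of every cluster one by one, added after seeing the data, called 17 clusters, all higher, of which 16 had 1 symbol.

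Cldn1 and Hr, chosen after their values were seen, separated the sides without overlap and did not pass the adjusted test. Cldn1, a tight junction protein of epidermis, differed by 1.57 (adjusted p = 0.296 in limma), and Hr, a regulator of hair growth, by 0.84 (adjusted p = 0.0662).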
